A study of Mus musculus with 12 samples.

Results

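Radial glia-like (RGL) stem cells that were not dividing were examined in the dentate gyrus of mice at postnatal day 7 (P7). They were taken as the cells with at least 1 unique molecular identifier (UMI, 1 counted RNA molecule) of at least 3 of 8 stem cell markers (Hopx, Frzb, Lpar1, Wnt8b, Tfap2c, Gdf10, Riiad1 and Thrsp), with no UMI of Eomes, with at most 1 of 5 astrocyte genes (Aqp4, Aldh1l1, Agt, Slc7a10 and F3) and with at most 1 of 8 division genes (Mki67, Top2a, Cenpf, Cenpa, Ube2c, Birc5, Cdk1 and Rrm2). By this rule 1695 of 24213 cells were non-dividing RGL-like cells, of which 533 were in the wild-type library, 567 in the Larp7f/f;nestin-Cre library and 595 in the Larp7f/f;Emx1-Cre library. The cells were chosen by the same counts that are described, so the 22 genes of the rule are given as a description.

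Larp7 encodes the protein that binds and stabilises 7SK RNA, the scaffold on which P-TEFb, the kinase of CDK9 and a cyclin T, is held inactive. P-TEFb releases RNA polymerase II that has paused near a start site, so the 7SK complex sets how much kinase is free to act. RGL stem cells are the founder cells of the dentate gyrus. They hold most of their number in quiescence, keep glial features, and give rise to intermediate progenitors that express Eomes and then to granule neurons.

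Dentate gyri were microdissected, dissociated with accutase and loaded on 10x Genomics 3′ chemistry, of which the labels name more than one version. Each of the 3 libraries combined 3 to 4 gyri of littermates, so that there was 1 library per genotype and no test across animals was possible. Wild-type controls carried floxed Larp7 alleles and no Cre according to the methods, and the mutant mice carried floxed Larp7 on both alleles with Cre driven either by a nestin (Nes) transgene, active in neural stem cells and their progeny, or by a knock-in at Emx1, active in the dorsal telencephalic lineage that forms the dentate gyrus. For both mutant libraries the sample title and the genotype entry name opposite Cre drivers. The title was followed, and the 2 mutant columns of every value below would trade names if the genotype entries are right. Both mutant libraries were compared with the same wild-type library, so they are given side by side and neither repeats the other.

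Cells were kept, by the limits of the methods, when over 500 genes and under 15% of mitochondrial UMIs were counted, which left 10997 of 12876 barcodes in the wild-type library, 6685 of 7177 in the Larp7f/f;nestin-Cre library and 6531 of 6821 in the Larp7f/f;Emx1-Cre library. The libraries held 26689878 to 28918491 UMIs. They shared 11 to 23 barcodes per pair, and no shared barcode was an RGL-like cell of both libraries. Xist, which is expressed from the inactive X chromosome of females, stood at 1448, 1440 and 757 CPM in the RGL-like cells, and the sexes of the combined mice are not given. All intervals below are 95% intervals (exact Poisson for UMI sums, exact binomial for shares and ratios, and order statistics for medians). They cover the error of counting only, not the spread between animals. Levels are given as CPM, the UMIs of a gene scaled to a total of 1000000 over the RGL-like cells of a library, and sets of 3 values are in the order wild-type, Larp7f/f;nestin-Cre, Larp7f/f;Emx1-Cre. With 3′ counting each transcript gives 1 tag whatever its length, so levels were not divided by length.

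The floxed exon of Larp7 is exon 9 of 13, which lies at chr3:127544154-127544278 on the minus strand (GRCm38.p6). It is coding and 125 bases long, which leaves a remainder of 2 on division by 3. The sequence is shown because its loss defines the mutant groups, with the exon in capitals and 15 intronic bases on either side.
Larp7 exon 9: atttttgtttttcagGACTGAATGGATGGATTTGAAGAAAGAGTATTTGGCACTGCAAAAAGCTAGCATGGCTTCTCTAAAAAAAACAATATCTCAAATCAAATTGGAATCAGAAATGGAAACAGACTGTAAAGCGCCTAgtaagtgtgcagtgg
The last exon, where 3′ tags fall, lies at chr3:127536714-127537034 and outside the deleted exon. The Larp7 count therefore reads transcript level and does not show the deletion itself. RGL-like cells held 51, 22 and 17 UMIs of Larp7, or 31.8, 10.1 and 7.65 CPM, and the log2 ratio to wild-type was -1.65 (interval -2.44 to -0.90) in the Larp7f/f;nestin-Cre library and -2.05 (-2.94 to -1.24) in the Larp7f/f;Emx1-Cre library. In all other cells the log2 ratios were -2.21 and -1.95. Both mutant libraries were thus below wild-type, with fewer than 100 UMIs behind each ratio.

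Hopx, a homeodomain protein that marks RGL stem cells, was the marker that nearly all of these cells had in common. It was detected in 98.1%, 99.1% and 98.8% of them, against 23.9%, 10.9% and 14.7% of microglia-like cells, which should lack it and whose share gives the level of free RNA. The median depth was 2995, 3695 and 3563 UMIs in RGL-like cells and 1806, 3206 and 3205 in microglia-like cells. Thrsp, a regulator of lipid synthesis, was found in 79.4%, 89.2% and 82.7% of RGL-like cells. The BMP family ligand Gdf10 was found in 48.0%, 49.7% and 54.1%, and the transcription factor Tfap2c in 37.7%, 45.1% and 45.0%. Riiad1 was found in 45.2%, 38.6% and 38.8%, the Wnt antagonist Frzb in 37.1%, 40.4% and 40.3%, the Wnt ligand Wnt8b in 23.5%, 20.6% and 19.3%, and the lysophosphatidic acid receptor Lpar1 in 22.3%, 34.6% and 31.6%. After Hopx and Thrsp, no marker was found in more than 54.1% of the cells of a library, so the cells met the rule through different sets of markers.

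Cells just inside the marker minimum were compared with those just outside it. In the wild-type library 246 cells had 3 markers and 623 cells that met the other criteria had 2. Hopx stood at 1438 CPM inside and 987 outside, Sox9 at 647 and 526, Fabp7 at 10389 and 8902, and the neuronal gene Stmn2 at 64.1 and 198. In the Larp7f/f;nestin-Cre library 182 cells had 3 markers and 250 had 2, with Hopx at 1554 and 744, Sox9 at 933 and 573, and Stmn2 at 131 and 509. In the Larp7f/f;Emx1-Cre library 203 cells had 3 markers and 253 had 2, with Hopx at 1593 and 918, Sox9 at 1022 and 586, and Stmn2 at 165 and 549. In each library the stem cell genes were lower and Stmn2 higher outside the limit. The cells outside were relatively more numerous in the wild-type library, where the median UMI count was 1512 outside and 2620 inside.

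RGL-like cells made up 4.85% of the cells that passed in the wild-type library (interval 4.45 to 5.26), 8.48% in the Larp7f/f;nestin-Cre library (7.82 to 9.18) and 9.11% in the Larp7f/f;Emx1-Cre library (8.42 to 9.83). The rule counts detected genes and so depends on depth. When it was applied to cells thinned to 1500 UMIs, which left 6212, 6088 and 6092 cells, the shares were 5.36% (4.81 to 5.95), 6.59% (5.98 to 7.24) and 6.75% (6.13 to 7.41). Both mutant shares stayed above the wild-type share at equal depth, by a smaller margin. Thinning kept 6212 of 10997, 6088 of 6685 and 6092 of 6531 cells, so a larger part of the wild-type library was left out. The effect of this unequal loss on the shares was not tested. Shares of dissociated cells also depend on how many cells of other types were recovered.

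Of all RGL-like cells, dividing ones included, those with at least 2 division genes were 31.6% in wild-type (246 of 779, interval 28.3 to 35.0), 18.5% in Larp7f/f;nestin-Cre (129 of 696, 15.7 to 21.6) and 24.7% in Larp7f/f;Emx1-Cre (195 of 790, 21.7 to 27.8). At 1500 UMIs per cell they were 17.4% (70 of 403, 13.8 to 21.4), 7.39% (32 of 433, 5.11 to 10.3) and 13.3% (63 of 474, 10.4 to 16.7). The dividing share was thus lowest in the Larp7f/f;nestin-Cre library under both counts, and the intervals of wild-type and Larp7f/f;Emx1-Cre overlapped at equal depth. The dividing cells also held markers of other cell types, least in Larp7f/f;nestin-Cre. Endothelial markers summed to 457, 21.6 and 657 CPM, microglia markers to 736, 231 and 517, and erythroid markers to 1670, 38.8 and 438. The part of other cell types and of doublets in the dividing shares was not tested. Exactly 1 division gene was found in 25.5%, 25.9% and 22.7% of the non-dividing cells, and exactly 1 astrocyte gene in 38.6%, 51.0% and 52.1%. The non-dividing cells are therefore those with few division transcripts, and not cells shown to be out of cycle.

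**Figure D1:**
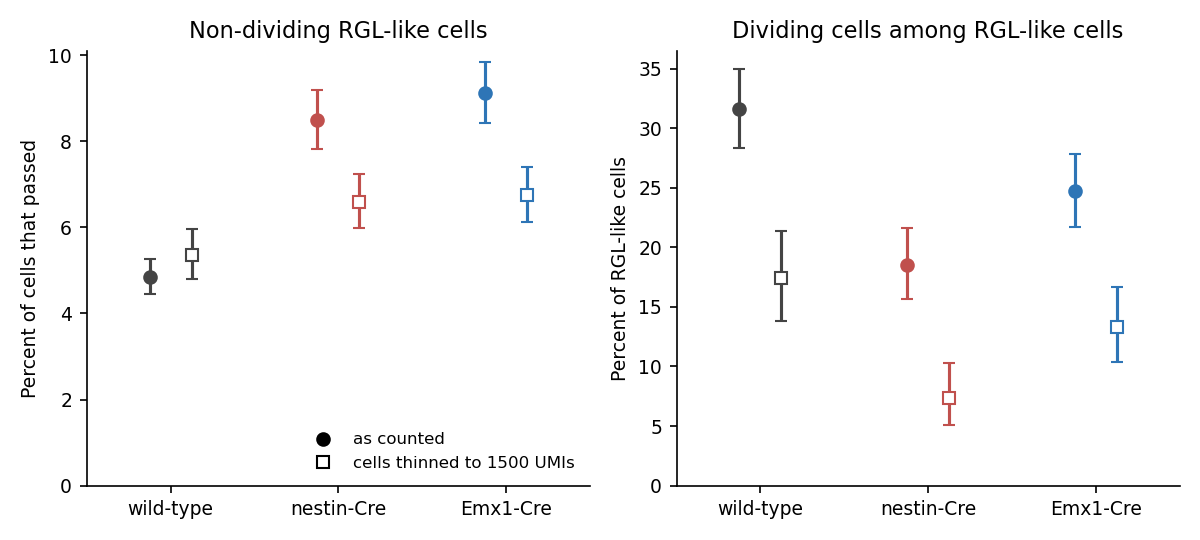
Non-dividing RGL-like cells as a percent of the cells that passed, and dividing cells as a percent of all RGL-like cells, in each of the 3 libraries, as counted and after thinning each cell to 1500 UMIs. Points are shares and bars are 95% exact binomial intervals, and the non-dividing share is 4.85%, 8.48% and 9.11% as counted and 5.36%, 6.59% and 6.75% after thinning.

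Wild-type RGL-like cells had fewer UMIs per cell than those of either mutant library. The median UMI count was 2995 (2841 to 3088), 3695 (3555 to 3788) and 3563 (3463 to 3644), a ratio to wild-type of 1.23 and 1.19. The median number of genes was 1599, 1934 and 1875. After thinning to 1500 UMIs it was 961, 988 and 986, with 66, 11 and 15 cells left out, so that most of the difference in genes went with depth. UMI counts per cell differed in the same direction in other cells of these libraries, by 1.14 in both mutant libraries for astrocyte-like cells and by 1.78 in both for microglia-like cells. Mitochondrial UMIs made up a median of 3.09%, 2.98% and 2.88%, and ribosomal protein transcripts 14.3%, 11.5% and 12.2% of the summed UMIs of the class.

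Stem cell and radial glial genes that were not part of the rule were next examined to see whether the label holds. Fabp7, the brain lipid binding protein of radial glia, was found in 99.8%, 99.3% and 99.2% of the cells at 11300, 8855 and 10287 CPM. Slc1a3, the glial glutamate transporter GLAST, stood at 2779, 3649 and 3106, and the intermediate filament gene Vim at 1044, 919 and 1014. Sox2, a transcription factor of neural stem cells, stood at 643, 801 and 810. Radial glial genes were therefore abundant in all 3 libraries. The 24 stem cell genes outside the rule summed to 22351, 22318 and 22905 CPM in RGL-like cells. They summed to 5662, 2218 and 3250 in microglia-like cells and to 30169, 27182 and 27848 in astrocyte-like cells. These genes therefore do not tell RGL-like cells from astrocyte-like cells. The intermediate filament gene Nes stood at 117, 133 and 114, and the intervals of its ratios to wild-type included no difference. Microglia-like cells held Nes at 84.8, 83.0 and 93.7 CPM, so its level in RGL-like cells was near that of a cell type that should lack it. Apart from the genes given by the selection rule described in the methods, genes named from the lists here and below were chosen after their values were seen.

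The genes outside the rule that stood highest over all other cells of the same library included Ano1, Abca8a, Paqr6, Slc2a9, Itih3, Entpd2, Gli1, D630033O11Rik, Fam107a, Hopxos and 1500015O10Rik. The most abundant, 1500015O10Rik (Ecrg4), stood at 711, 661 and 721 CPM, which was 5.72, 6.88 and 5.61 times its level in the other cells. Entpd2, an enzyme that breaks down extracellular nucleotides, stood at 211, 225 and 246, and the Hedgehog effector Gli1 at 34.9, 35.9 and 34.7. Levels of these 3 genes lay close together in the 3 libraries. Hopxos is annotated next to Hopx on the opposite strand and is given as uncertain for that reason. Since these genes were ranked in the cells that the rule had picked, their ratios to other cells are a description.

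Variation among the cells of a library was described by the Fano factor, the variance divided by the mean, after thinning to 1500 UMIs. Over 2378 genes its median was 1.03 in each library, close to the value of 1 that random sampling of molecules gives. The nuclear RNA Malat1 had the highest values at 24.8, 19.9 and 20.1, and Fabp7 stood at 7.11, 5.51 and 5.80. The Notch target Hes5 stood at 3.01, 2.91 and 2.88, the immediate early gene Fos at 3.54, 3.33 and 3.68, and the BMP target Id3 at 2.62, 2.65 and 2.80. Among the genes whose levels varied most from cell to cell were thus a radial glial gene, a Notch target and genes that respond within minutes to signals, in every library.

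Sox9, a transcription factor that specifies and maintains neural stem cells, was the stem cell gene outside the rule with the highest ratios to wild-type in both mutant libraries. It stood at 723, 1129 and 1110 CPM, a log2 ratio of 0.64 (0.54 to 0.74) in Larp7f/f;nestin-Cre and 0.62 (0.52 to 0.72) in Larp7f/f;Emx1-Cre, and was found in 80.5%, 92.2% and 92.9% of the cells. In dividing RGL-like cells the log2 ratios of Sox9 were 0.74 and 0.55, and in all other cells together -0.18 and 0.13. In astrocyte-like cells Sox9 stood at 586, 895 and 936 CPM, with log2 ratios of 0.61 and 0.67. Tnc, an extracellular matrix protein of the stem cell niche, stood at 257, 353 and 337, with log2 ratios of 0.46 and 0.39. Ptprz1, a receptor phosphatase of radial glia, stood at 2037, 3015 and 2634 (0.57 and 0.37). These genes were higher in both mutant libraries than in the wild-type library.

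Gfap, the intermediate filament gene of astrocytes and RGL stem cells, went the other way. It stood at 467, 312 and 383 CPM, a log2 ratio of -0.58 (-0.74 to -0.43) and -0.28 (-0.43 to -0.14), and the endothelin receptor gene Ednrb stood at 129, 104 and 108 (-0.32 and -0.26). Fabp7 was also lower, with log2 ratios of -0.35 and -0.14. Of the 24 stem cell genes outside the rule, 21 had at least 100 UMIs in wild-type and Larp7f/f;nestin-Cre, with 14 above and 7 below the wild-type level (median log2 ratio 0.18), and 20 in wild-type and Larp7f/f;Emx1-Cre, of which 11 were higher and 9 lower (median 0.09). Over all described genes 3262 of 5890 and 3333 of 5923 were higher and the median was 0.04 for both. The list was therefore split in direction. Free RNA in the wild-type library was also richer in glial transcripts: Fabp7 stood at 2521, 688 and 1108 CPM in microglia-like cells, and its part in the differences was not tested.

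**Figure D2:**
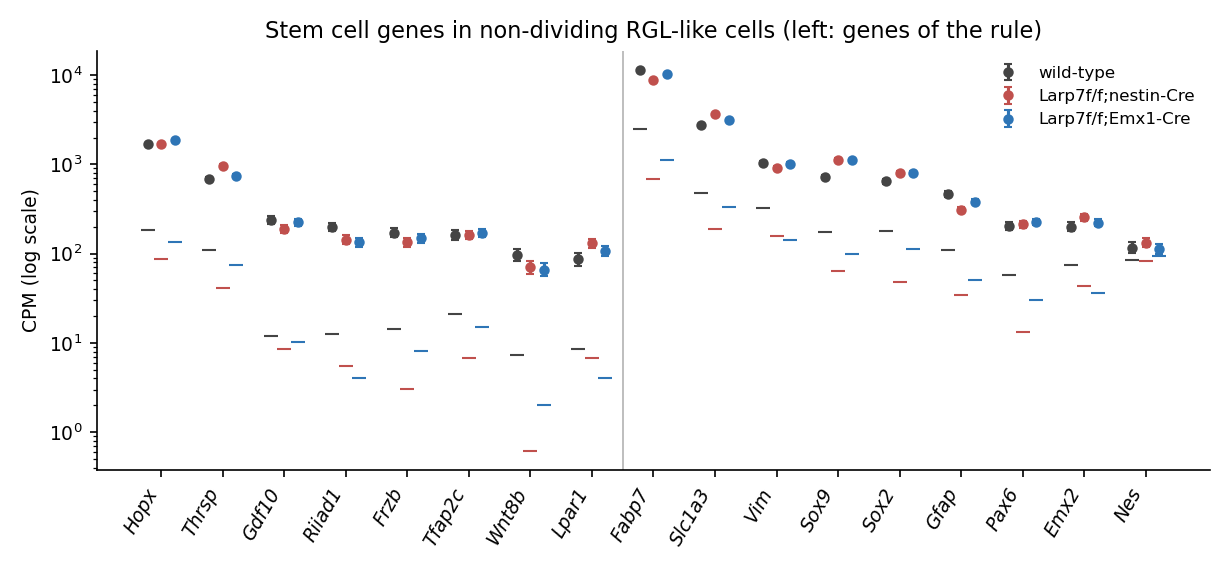
Levels of the 8 stem cell markers of the rule (left of the grey line) and of 9 stem cell genes outside it in non-dividing RGL-like cells, in CPM on a log axis, where points are library values, bars 95% exact Poisson intervals and dashes the level in microglia-like cells of the same library. Sox9 is at 723, 1129 and 1110 while Gfap is at 467, 312 and 383, and the dashes of Nes lie close to its points.

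Across all genes, differences were described by their size, since no test was possible. Of 5890 genes with at least 100 UMIs in the RGL-like cells of the wild-type and Larp7f/f;nestin-Cre libraries, 450 (7.64%) were at least 1.5-fold higher in Larp7f/f;nestin-Cre and 156 (2.65%) at least 1.5-fold lower. Of 5923 genes in wild-type and Larp7f/f;Emx1-Cre, 290 (4.90%) were at least 1.5-fold higher in Larp7f/f;Emx1-Cre and 107 (1.81%) lower. The mutant libraries stood closer to each other: of 6532 genes, 90 (1.38%) were at least 1.5-fold higher in Larp7f/f;nestin-Cre than in Larp7f/f;Emx1-Cre and 50 (0.765%) lower. This is the distance of 1 pair of libraries, which are both from mutants and differ in Cre driver. Of the genes past 1.5-fold, 74.3% were higher in Larp7f/f;nestin-Cre and 73.0% in Larp7f/f;Emx1-Cre than in wild-type. With scaling by the median of ratios in place of the total, the split was 60.4% and 58.4%, so the excess of higher genes depended on the scaling. Leaving mitochondrial and ribosomal protein genes out of the total gave 63.9% and 63.5%.

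**Figure D3:**
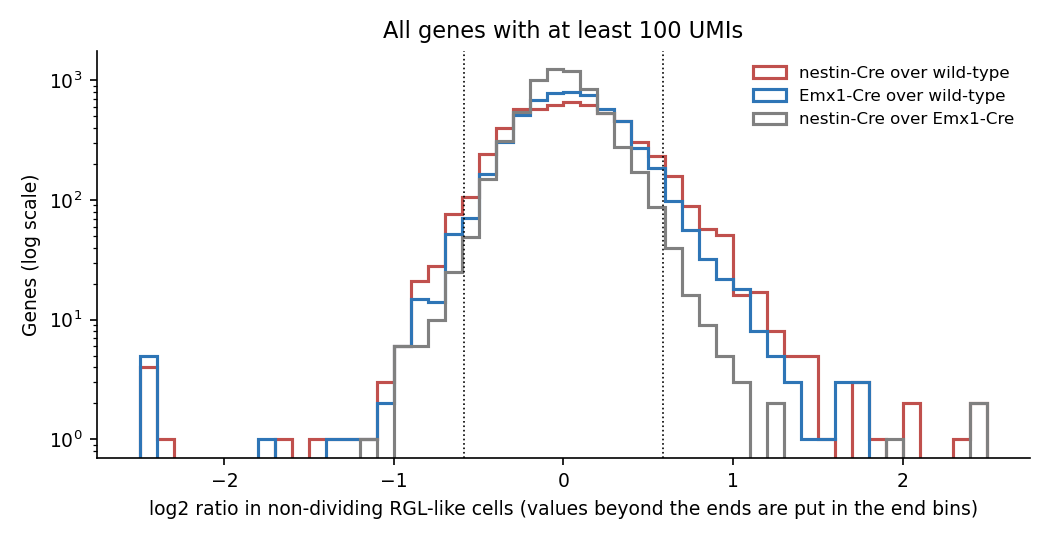
Number of genes (log axis) by log2 ratio in non-dividing RGL-like cells, for Larp7f/f;nestin-Cre over wild-type, Larp7f/f;Emx1-Cre over wild-type and Larp7f/f;nestin-Cre over Larp7f/f;Emx1-Cre, with 1.5-fold marked by dotted lines and values beyond the ends put in the end bins. The right tail holds 450 and 290 genes over wild-type and 90 between the mutant libraries, and the left tail 156, 107 and 50.

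The genes highest in both mutant libraries over wild-type were named by the smaller of the 2 ratios. Utp14b, a retrogene of a ribosome assembly factor, stood at 15.6, 79.7 and 49.1 CPM, a log2 ratio of 2.36 (1.74 to 3.02) and 1.65 (1.02 to 2.34), and was found in 4.69%, 25.0% and 15.3% of the cells. It shares its start (chr1:78657825, GRCm38.p6) and strand with Acsl3, which activates long-chain fatty acids, and 419 of its 3981 exonic bases (10.5%), so the counts of this pair are uncertain. Acsl3 itself stood at 89.1, 201 and 147, with log2 ratios of 1.18 and 0.72. Utp14b was also higher in all other cells, with log2 ratios of 1.36 and 0.94.

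Of the other genes in that ranking, Prpf8, the core protein of the spliceosome, stood at 36.2, 86.6 and 95 CPM, with log2 ratios of 1.26 and 1.39. Snrnp200, its helicase partner, stood at 38.6, 77.9 and 76.1, and in all other cells at 47.7, 85.2 and 77.5. The long non-coding RNA Neat1, which builds paraspeckles, stood at 46.8, 160 and 105 (1.77 and 1.17), and the axon initial segment gene Ank3 at 25.6, 58.5 and 59.9 (1.20 and 1.23). For Prpf8, Neat1 and Ank3 the other cells also stood above wild-type, with log2 ratios of 0.91 and 0.71, of 1.12 and 0.37, and of 1.26 and 0.82. In thinned cells Ank3 was found in 1.93%, 5.58% and 4.48% of RGL-like cells against 5.39%, 5.77% and 3.64% of microglia-like cells. Only the Larp7f/f;Emx1-Cre share was above that background, and its interval (2.95 to 6.50) included it. The ratios of Ank3 are therefore not read as expression. Arid5a, an RNA-binding regulator of inflammatory transcripts, stood at 28.7, 80.7 and 73.4 (1.49 and 1.36; other cells 0.49 and 0.32), and Gadd45b, a stress and DNA demethylation gene, at 38.6, 97.7 and 88.7 (1.34 and 1.20; other cells 0.22 and 0.26). B230312C02Rik stood at 19.3, 65.9 and 63.0, the lipid transporter gene Abca6 at 13.7, 50.2 and 41.9, and the secretory granule gene Chgb at 19.9, 54.4 and 67.1.

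Haemoglobin transcripts were the lowest in both mutant libraries. Hbb-bs stood at 324, 24.0 and 36.9 CPM, a log2 ratio of -3.75 and -3.13, and Hba-a1 at 132, 8.76 and 17.1, with Hbb-bt and Hba-a2 likewise lower. The 4 genes encode the chains of haemoglobin and were lower by similar amounts in other cells (Hbb-bs -3.18 and -2.5). Hba-a1 and Hba-a2 are near-identical copies, as are Hbb-bs and Hbb-bt, so reads can be split within each pair. The 5 erythroid genes summed to 654, 47.0 and 78.8 CPM in RGL-like cells. Ccl4, a microglial chemokine, stood at 58.0, 11.5 and 9.90, and 59 of its 93 wild-type UMIs were in 1 cell. Cldn5, an endothelial junction protein, stood at 72.9, 26.7 and 31.5, and 1 cell held 103 of 117, 49 of 58 and 65 of 70 of its UMIs. These genes mark other cell types. Under other cell rules the direction turned for Ccl4 in both mutant libraries and for Cldn5 in Larp7f/f;nestin-Cre, while for Cldn5 in Larp7f/f;Emx1-Cre the log2 ratio ranged from -2.56 to -0.28.

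Among the lowest genes that do not mark blood, microglia or vessels, the histone gene Hist1h2bc stood at 206, 106 and 79.7 CPM, a log2 ratio of -0.95 (-1.20 to -0.71) and -1.37 (-1.64 to -1.11), with -1.46 and -1.35 in other cells. Olig1, a transcription factor of the oligodendrocyte lineage, stood at 66.1, 35.0 and 19.8 (-0.92 and -1.74). Microglia-like cells, which should lack Olig1, held it at 125, 31.7 and 65.5 CPM, and at 1500 UMIs it was found in 6.42%, 2.88% and 1.55% of RGL-like cells against 13.3%, 3.12% and 6.07% of microglia-like cells, so the shares with Olig1 were not above that background. Gamt, an enzyme of creatine synthesis, stood at 78.5, 43.3 and 35.6, and Thyn1 at 60.5, 32.7 and 32.0. Each of these 4 genes was lower in both mutant libraries than in wild-type, in RGL-like cells and in all other cells together.

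Markers of other cell types were summed to see what else the chosen cells held. The 12 neuron markers summed to 516, 754 and 663 CPM, 12 microglia markers to 237, 238 and 167, 8 endothelial markers to 146, 76.0 and 86.9, and 10 mural and stromal markers to 364, 387 and 498. Oligodendrocyte markers summed to 66.1, 119 and 74.3 with Mog and Mobp at 0 in every library, ependymal markers to 28.1, 97.7 and 91.4, and interneuron markers to 4.99, 4.15 and 5.85 with 3, 3 and 1 of the 7 at 0 (Dlx1, Dlx5 and Npy, then Dlx2, Dlx5 and Sst, then Sst). Cajal-Retzius markers summed to 5.61, 84.3 and 7.65, with Lhx5 and Trp73 at 0 in wild-type and Larp7f/f;Emx1-Cre and Lhx1 at 0 in wild-type. In the Larp7f/f;nestin-Cre library 1 cell held 55 of 107 UMIs of Reln and 109 of 235 of Meg3. Apart from these, Camk2a, Col1a1, Lum and Alas2 were at 0 in Larp7f/f;Emx1-Cre and Kcnj8 in Larp7f/f;nestin-Cre, and every microglia, endothelial and ependymal marker had a UMI in each library. At least 2 markers of the erythroid, microglia, endothelial or Cajal-Retzius list were found in 65, 33 and 27 cells, and the results below were also computed without them.

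Immediate early genes are transcribed within minutes of a signal, from polymerase that is held paused at their starts, and they encode transcription factors and feedback inhibitors. They formed the list with the largest difference among those set out for stem cells and transcription. Fos, a subunit of AP-1, stood at 2148 CPM in wild-type, 3708 in Larp7f/f;nestin-Cre and 3252 in Larp7f/f;Emx1-Cre, a log2 ratio of 0.79 (0.73 to 0.85) and 0.60 (0.54 to 0.66). Both mutant values lay above wild-type and the Larp7f/f;nestin-Cre value lay highest. Fosb stood at 165, 404 and 284 (1.29 and 0.79) and the zinc finger factor Egr1 at 585, 1109 and 945 (0.92 and 0.69). Junb stood at 386, 615 and 530, Jund at 519, 819 and 639, and Jun at 1119, 1242 and 1232 (0.15 and 0.14). Of the AP-1 subunits named, Jun thus stood closest to wild-type.

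Klf4, a Krüppel-like factor that restrains proliferation in many cells, stood at 117 CPM, 319 and 237, with log2 ratios of 1.45 (1.22 to 1.69) and 1.02 (0.78 to 1.27). It was found in 19.5%, 48.7% and 40% of the cells, and at 1500 UMIs per cell in 13.5%, 30.0% and 23.6%, against 12.6%, 22.6% and 14.6% of microglia-like cells thinned to the same depth. Microglia-like cells held Klf4 at 110, 209 and 140 CPM and Eomes-positive progenitor-like cells at 13.4, 9.91 and 13.6, so the share of microglia-like cells is no measure of free RNA for Klf4. Dividing RGL-like cells held Klf4 at 72.0, 167 and 144 CPM, higher in both mutant libraries too, and astrocyte-like cells at 144, 247 and 151. Klf2 stood at 19.3, 80.7 and 43.2 (2.06 and 1.16), and 1 wild-type cell held 12 of its 31 UMIs. In dividing RGL-like cells Klf2 stood at 75.6, 47.4 and 92.9 CPM, and in astrocyte-like cells at 37.9, 36.5 and 28.9. Its ratios were thus not shared by these classes. Microglia-like cells held Klf2 at 426, 821 and 543 CPM, and the part of their RNA in the Klf2 ratios was not tested. Zfp36, which destabilises AU-rich transcripts, stood at 41.1, 104 and 84.2, a log2 ratio of 1.33 (0.93 to 1.75) and 1.03 (0.62 to 1.46), and in all other cells its log2 ratios were -0.46 and -0.39. Zfp36 was thus higher in non-dividing RGL-like cells and lower in the sum of all other cells of the mutant libraries. In dividing RGL-like cells it stood at 49.5, 37.4 and 39.7 CPM, which is lower in the mutant libraries with intervals that overlap. Microglia-like cells held Zfp36 at 410, 411 and 459 CPM and astrocyte-like cells at 185, 129 and 180. The part of their RNA in the Zfp36 ratios was not tested. Cyr61, a secreted matrix protein, stood at 137, 263 and 293 (0.94 and 1.10), the MAP kinase phosphatase gene Dusp1 at 281, 518 and 425 (0.89 and 0.60), and Ier2 at 453, 795 and 697 (0.81 and 0.62).

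Heat shock genes of the same list stood nearer to wild-type. Hspa8, the constitutive chaperone, stood at 1399, 1181 and 1340 (-0.24 and -0.06), Hspa1a at 48.0, 41.9 and 44.1 (-0.19 and -0.12), Hsp90aa1 at 772, 865 and 832 (0.16 and 0.11) and Dnajb1 at 52.4, 54.4 and 55.8 (0.05 and 0.09). Ier5 stood at 138, 121 and 123 (-0.19 and -0.17). The intervals of both Hspa1a and both Ier5 ratios included no difference.

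Of the 30 genes of the immediate early and heat shock list, 24 had enough UMIs for the Larp7f/f;nestin-Cre comparison, of which 21 stood above and 3 below the wild-type level, and 13 were at least 1.5-fold higher and 0 lower. For Larp7f/f;Emx1-Cre 23 had enough, of which 20 were higher and 3 lower, and 10 were at least 1.5-fold higher and 0 lower. These counts stand beside 7.64% and 4.90% of all genes. The median log2 ratios were 0.67 and 0.53, against 0.04 over all genes in both. In dividing RGL-like cells the medians of the list were 0.44 and 0.41, in astrocyte-like cells -0.01 and 0.14, in Eomes-positive progenitor-like cells -0.30 and -0.03, in microglia-like cells 0.26 and 0.10, and in all other cells together 0.09 and 0.14. The medians were thus largest in RGL-like cells, non-dividing and dividing, among the classes compared, and the difference between classes was not tested. In level the list summed to 8875, 12987 and 11750 CPM in non-dividing RGL-like cells and to 11068, 11363 and 12345 in astrocyte-like cells. The RGL-like sum was thus below the astrocyte-like sum in wild-type and Larp7f/f;Emx1-Cre and above it in Larp7f/f;nestin-Cre. High levels of the list were therefore not particular to RGL-like cells.

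Cells were also scored by how many of Fos, Egr1, Jun, Junb, Ier2, Klf4, Klf2 and Zfp36 they held at 1500 UMIs. At least 4 of the 8 were found in 40.5% of wild-type cells (36.0 to 45.1), 64.9% of Larp7f/f;nestin-Cre cells (60.8 to 68.9) and 55.0% of Larp7f/f;Emx1-Cre cells (50.8 to 59.1). None was found in 6.00%, 4.50% and 4.83%. Most cells of every library thus held some of these transcripts, and cells that held many were more frequent in the mutant libraries. The 8 genes include Klf2, Klf4 and Zfp36, whose ratios to wild-type were high in these same cells. They leave out Ier5 and the heat shock genes, which stood nearer to wild-type. The score therefore restates those ratios per cell and is given as a description. Fos was found at this depth in 78.2%, 89.2% and 83.4% of RGL-like cells and in 50.8%, 63.5% and 55.5% of microglia-like cells, and Egr1 in 46.5%, 68.7% and 60.9% against 56.9%, 55.5% and 65.6%. Microglia express these genes themselves, so their shares are no measure of free RNA for Fos and Egr1.

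**Figure D4:**
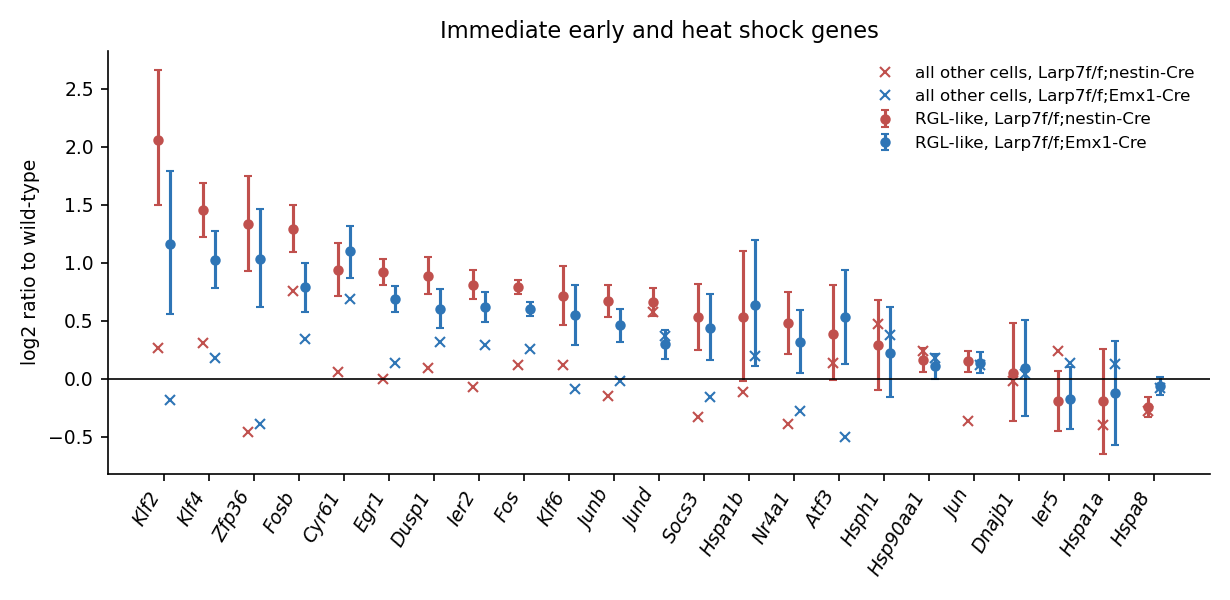
Log2 ratio to wild-type of the immediate early and heat shock genes with at least 100 UMIs in both comparisons, where circles are non-dividing RGL-like cells with 95% exact binomial intervals and crosses are all other cells of the same libraries. Klf4 stands at 1.45 and 1.02 in RGL-like cells against 0.31 and 0.18 in the other cells, which include dividing RGL-like cells. Jun and the heat shock genes on the right lie near 0.

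Since these genes stood higher together, their promoters were read for 2 motifs through which such genes are known to be switched on. TGACGT is the core bound by CREB and ATF factors, and the CArG box is bound by serum response factor. The 250 bases before the start of Fos, Dusp1, Cyr61 and Zfp36 are shown, picked from the genes of the list that have a motif. They read 5′ to 3′ on the gene's strand, with the motif in capitals (RefSeq, GRCm38.p6).
Fos, chr12:85473640-85473889, plus strand: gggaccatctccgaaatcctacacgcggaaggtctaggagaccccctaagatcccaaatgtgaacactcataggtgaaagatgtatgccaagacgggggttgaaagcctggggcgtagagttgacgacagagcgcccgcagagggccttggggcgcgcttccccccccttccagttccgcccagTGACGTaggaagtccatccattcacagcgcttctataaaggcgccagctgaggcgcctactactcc
Dusp1, chr17:26508473-26508722, minus strand: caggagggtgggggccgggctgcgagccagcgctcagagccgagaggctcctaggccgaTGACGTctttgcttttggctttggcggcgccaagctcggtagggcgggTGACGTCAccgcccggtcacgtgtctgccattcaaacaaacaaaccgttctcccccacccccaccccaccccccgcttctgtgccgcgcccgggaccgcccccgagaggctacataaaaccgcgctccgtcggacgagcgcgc
Cyr61, chr3:145649986-145650235, minus strand: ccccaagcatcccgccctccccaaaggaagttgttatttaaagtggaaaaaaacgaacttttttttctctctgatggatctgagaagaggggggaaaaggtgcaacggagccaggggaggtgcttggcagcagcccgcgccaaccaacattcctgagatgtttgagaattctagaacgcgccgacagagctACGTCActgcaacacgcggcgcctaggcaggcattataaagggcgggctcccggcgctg
Zfp36, chr7:28379229-28379478, minus strand: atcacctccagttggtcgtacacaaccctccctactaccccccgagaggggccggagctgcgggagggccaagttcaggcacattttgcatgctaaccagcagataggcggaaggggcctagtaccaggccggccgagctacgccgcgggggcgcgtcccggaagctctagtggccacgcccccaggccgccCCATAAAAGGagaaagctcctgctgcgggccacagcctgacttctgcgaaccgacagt
The TGACGT core lies 66 bases before the start in Fos, 191, 143 and 141 bases before it in Dusp1, where the last pair overlap and read on both strands, and 59 bases before it in Cyr61, on the opposite strand. The CArG box of Zfp36 lies 58 bases before the start. Searched on both strands, TGACGT was in 2066 of 27025 promoters (7.64%) and in 5 of the 23 promoters found for the 30 list genes (21.7%), those of Fos, Dusp1, Atf3, Npas4 and Cyr61. The CArG box was in 425 promoters (1.57%) and in 1 of the 23 (4.35%). Neither motif was in the stretch searched for Klf2, Klf4, Fosb and Junb, which also stood higher in both mutant libraries. The stretches searched began 250 bases before the start, so motifs farther upstream were not read and a gene without a match may have one there. Egr1 and Ier2 were not among the 23 promoters. A match is a run of letters and shows no binding in these cells.

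Regulators of stem cell quiescence stood slightly above wild-type in both mutant libraries. Of 24 genes 23 were described, of which 23 were higher and 0 lower in Larp7f/f;nestin-Cre, and 20 higher and 3 lower in Larp7f/f;Emx1-Cre, with a median log2 ratio of 0.30 in both. In each comparison 2 of the 23 were at least 1.5-fold higher, beside 7.64% and 4.90% of all genes, so most differences were small. Id3, an inhibitor of neurogenic bHLH factors, stood at 1128, 1884 and 1662 CPM, a log2 ratio of 0.74 (0.66 to 0.82) and 0.56 (0.48 to 0.64), and in all other cells of -0.29 and 0.02. In dividing RGL-like cells the log2 ratios of Id3 were 0.71 and 0.57, and in astrocyte-like cells 0.09 and 0.09. Its relatives Id1, Id2 and Id4 stood at 417, 591 and 521, at 393, 546 and 619, and at 305, 403 and 377. All 4 Id genes were higher in both mutant libraries.

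Hes1, the Notch effector that represses proneural genes, stood at 230, 339 and 332 CPM (0.56 and 0.53), with log2 ratios of -0.73 and 0.02 in all other cells. Cdkn1b, an inhibitor of cyclin-dependent kinases, stood at 142, 201 and 175 (0.51 and 0.30), and Rb1, the retinoblastoma protein that holds E2F factors, at 31.2, 57.6 and 46.8 (0.89 and 0.59). The nuclear factor I genes Nfib and Nfix stood at 1487, 1802 and 1776, and at 1058, 1066 and 1132. Foxo1, a transcription factor of the insulin pathway, differed in direction at 81.7, 104 and 69.3 (0.34 and -0.24). The list had medians of 0.44 and 0.32 in dividing RGL-like cells and of 0.11 and 0.13 in all other cells, and of -0.90 and -0.48 in microglia-like cells. In astrocyte-like cells 18 and 19 of the 21 described genes were higher, with medians of 0.21 and 0.14. Higher levels of the list were thus found in dividing RGL-like cells and astrocyte-like cells too.

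In the Notch pathway the targets stood apart from each other. Hes1 was higher, Hes5 stood at 1423, 1289 and 1145 CPM (-0.14 and -0.31), and Hes6, which opposes Hes1, stood at 107, 69.1 and 74.7 (-0.62 and -0.51). Of 10 described Notch genes 8 were higher and 2 lower in Larp7f/f;nestin-Cre, and 7 higher and 3 lower in Larp7f/f;Emx1-Cre (medians 0.18 and 0.15). In the BMP pathway the same counts were 8 and 2, and 7 and 3 (medians 0.29 and 0.10), and the Id genes are among its targets. Over all described genes 3262 of 5890 and 3333 of 5923 were higher, with a median of 0.04 for both. At least 1.5-fold higher were 0 Notch genes in either library and 2 and 1 BMP genes, beside 7.64% and 4.90% of all genes. The BMP effector Smad1 stood at 92.3, 140 and 87.8 (0.60 and -0.07). Smad1 was thus above wild-type in one mutant library.

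Of 15 described Wnt genes 11 were higher and 4 lower in each mutant library (medians 0.10 and 0.12). The Wnt effector Lef1 stood at 61.7, 96.8 and 93.6 CPM (0.65 and 0.60, the latter turning to -0.17 in cells with no astrocyte or division gene) and the receptor gene Fzd3 at 43.6, 60.8 and 64.8 (0.48 and 0.57). The ligand Wnt8b, a gene of the rule, stood at 96.6, 70.5 and 66.2, and the repressor Tcf7l1 at 54.2, 40.1 and 44.6 (-0.44 and -0.28). Ligand and repressor were thus lower and an effector and a receptor higher, within a list whose median lay near that of all genes.

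**Figure D5:**
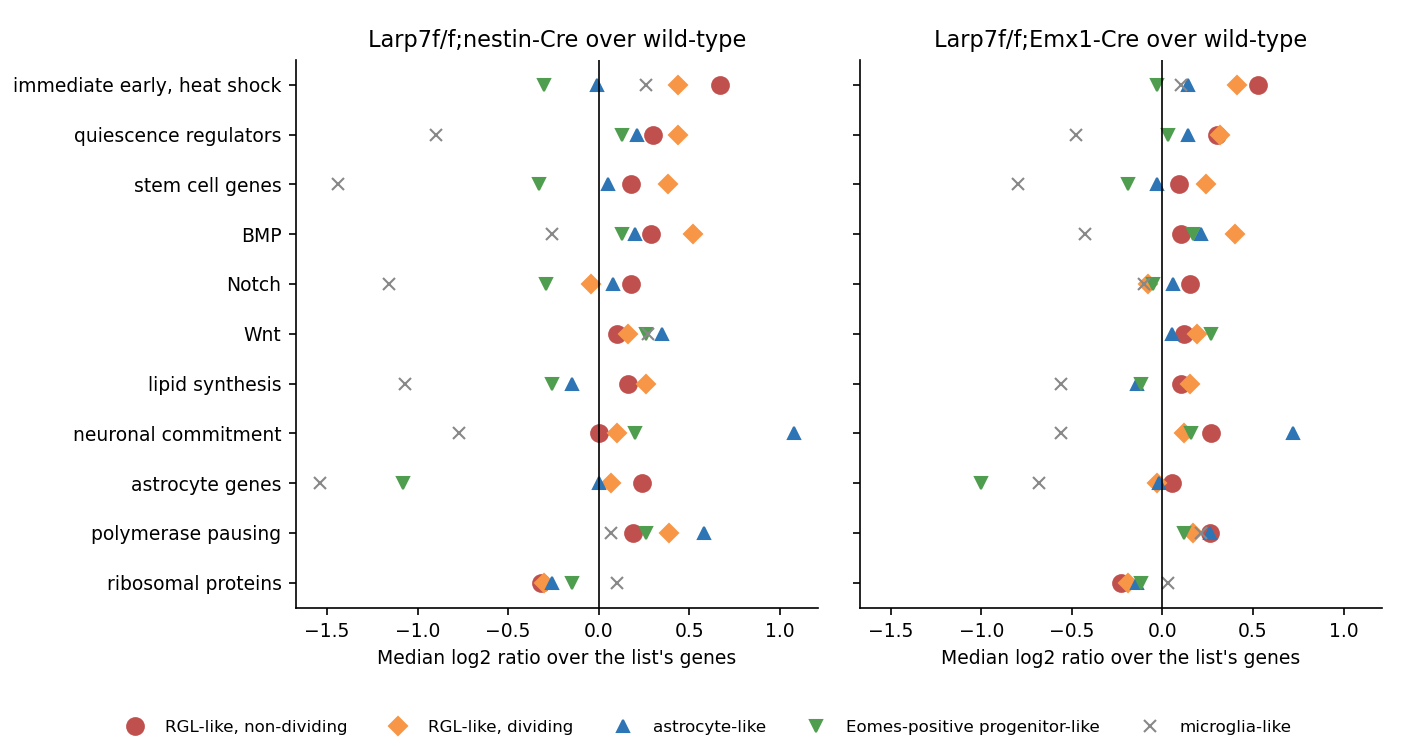
Median log2 ratio to wild-type of each gene list in 5 classes of cells, with the genes of at least 100 UMIs in the class, Larp7f/f;nestin-Cre on the left and Larp7f/f;Emx1-Cre on the right. In non-dividing RGL-like cells the immediate early and heat shock list stands at 0.67 and 0.53 and the ribosomal protein genes at -0.32 and -0.23.

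Genes of neuronal commitment did not stand on one side. The proneural factor Neurog2 stood at 46.1, 14.7 and 27.0 CPM, a log2 ratio of -1.65 (-2.29 to -1.03) and -0.77 (-1.29 to -0.26), and the neuropeptide gene Tac2 of early neuroblasts at 46.1, 18.0 and 27.9 (-1.36 and -0.73). At 1500 UMIs Neurog2 was found in 5.35%, 2.16% and 4.66% of RGL-like cells and in 5.62%, 0.481% and 2.43% of microglia-like cells. In the wild-type library the share of cells with Neurog2 was at that background. Tac2 was found in 5.35%, 1.44% and 1.90% against 15.3%, 4.09% and 2.43% of microglia-like cells, below that background in each library. Igfbpl1, of newborn granule cells, stood at 273, 171 and 204 (-0.68 and -0.42).

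The later neuronal genes stood at higher levels in the mutant libraries. Neurod1, the granule cell differentiation factor, stood at 71.7, 114 and 149 CPM (0.67 and 1.06), Prox1, which specifies granule cells, at 129, 198 and 189 (0.62 and 0.55), and the microtubule regulator Stmn2 at 54.9, 103 and 124 (0.91 and 1.18). In all other cells the log2 ratios were 1.19 and 0.91 for Neurod1, 0.96 and 0.68 for Prox1, and 1.11 and 0.88 for Stmn2, so these neuronal transcripts were higher in the sum of all other cells too. At 1500 UMIs Neurod1 was found in 7.28%, 10.3% and 8.45% of RGL-like cells against 20.9%, 15.9% and 13.8% of microglia-like cells, and Stmn2 in 4.71%, 7.55% and 8.45% against 14.4%, 15.1% and 10.5%. The shares of both genes were below that background in each library and are not read as expression. Btg2, an antiproliferative gene that is also a p53 target and an early response gene, stood at 684, 1289 and 1065, a log2 ratio of 0.91 (0.81 to 1.01) and 0.64 (0.53 to 0.74), with -0.10 and 0.19 in all other cells. Dividing RGL-like cells had Btg2 log2 ratios of 0.78 and 0.64. In the list as a whole 9 of 19 described genes were higher in Larp7f/f;nestin-Cre and 14 of 20 in Larp7f/f;Emx1-Cre (medians -0.00 and 0.27).

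Astrocyte genes outside the rule were examined because RGL stem cells and astrocytes share many transcripts. Of 21 described, 14 were higher in Larp7f/f;nestin-Cre and 12 in Larp7f/f;Emx1-Cre (medians 0.24 and 0.05). Slc1a2, the glutamate transporter GLT-1, stood at 1489, 2446 and 1975 CPM (0.72 and 0.41), and the secreted chaperone gene Clu at 436, 599 and 595 (0.46 and 0.45). The GABA transporter gene Slc6a11 stood at 147, 121 and 113 (-0.28 and -0.38) and Apoe at 4523, 4147 and 4035. Glial genes thus lay on both sides of wild-type.

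Lipid synthesis is a trait of these stem cells, and Thrsp of the rule belongs to it. Of 29 genes described, 16 were higher and 13 lower in Larp7f/f;nestin-Cre, and 19 higher and 10 lower in Larp7f/f;Emx1-Cre (medians 0.16 and 0.10). Beside Acsl3, the sterol enzymes Msmo1 and Sc5d stood at 353, 519 and 456 CPM and at 87.9, 118 and 116. Mvd, of the same pathway, stood at 92.3, 50.2 and 67.1 (-0.88 and -0.46), and the regulator Srebf1 at 56.1, 45.6 and 41.9. Enzymes of a single pathway thus stood on both sides. Of 16 fatty acid oxidation genes 8 and 12 were higher (medians 0.01 and 0.13).

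The partners of Larp7 were compared next. Hexim1, the inhibitor of P-TEFb that 7SK RNA recruits, stood at 62.3, 98.6 and 94.1 CPM, a log2 ratio of 0.66 (0.31 to 1.02) and 0.59 (0.24 to 0.95), and in all other cells of 1.00 and 0.87. The kinase Cdk9 stood at 59.8, 43.3 and 41.4 (-0.47 and -0.53), the cyclins Ccnt1 and Ccnt2 at 53.6, 68.2 and 67.5 (0.35 and 0.33) and at 59.2, 52.5 and 38.3 (-0.17 and -0.63, the latter turning to 0.03 in cells with no astrocyte or division gene), and the capping enzyme gene Mepce at 29.9, 33.6 and 33.3. The inhibitor was thus higher and the kinase lower in both mutant libraries, with fewer than 100 CPM for each gene.

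Of 12 described genes of polymerase pausing and elongation, 9 were higher in Larp7f/f;nestin-Cre and 7 in Larp7f/f;Emx1-Cre (medians 0.19 and 0.26). Over all described genes 3262 of 5890 and 3333 of 5923 were higher (median 0.04 for both), so the Larp7f/f;Emx1-Cre count was near that of all genes. Polr2a, the largest subunit of RNA polymerase II, stood at 62.3, 111 and 117 CPM, a log2 ratio of 0.83 (0.49 to 1.18) and 0.91 (0.57 to 1.26). The elongation kinase genes Cdk12 and Cdk13 stood at 84.2, 123 and 128 and at 29.9, 48.9 and 56.3, and Aff4, scaffold of the super elongation complex, at 88.5, 166 and 143. Nelfe, a subunit of the negative elongation factor that holds polymerase paused, stood at 71.7, 48.4 and 51.8 (-0.57 and -0.47). Nelfcd, another subunit of that factor, stood at 42.4, 26.7 and 39.6 (-0.67 and -0.10), and the interval of the latter ratio included no difference. Of the genes named here, the polymerase, the kinases and the scaffold were thus higher and the subunits of the pausing factor lower, Nelfcd by little in Larp7f/f;Emx1-Cre. Polr2a, Hexim1 and Nelfe differed in the same directions in the other cells (Polr2a 0.38 and 0.55, Nelfe -0.53 and -0.35).

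Ribosomal protein genes were lower almost without exception. Of 82 described, 0 were higher and 82 lower in Larp7f/f;nestin-Cre, and 1 higher and 81 lower in Larp7f/f;Emx1-Cre, with medians of -0.32 and -0.23 and none past 1.5-fold. In dividing RGL-like, astrocyte-like and Eomes-positive progenitor-like cells the medians were below 0 as well, and in microglia-like cells they were 0.10 and 0.03. These transcripts made up 11.5% to 14.3% of the summed UMIs to which levels were scaled. Targets of p53 stood near the other genes, with 7 of 12 and 6 of 12 higher (medians 0.14 and 0.09), and Plk2 stood at 28.1, 62.2 and 55.8 CPM.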

How the data were processed

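Per the labels and the file header, the authors used Cell Ranger to align the 10x Genomics 3′ reads and to count UMIs for each gene and barcode (version 4.0.0 in the header, where the methods name another; mm10 in the submitters' processing notes), and deposited whole UMI counts for 27998 genes without normalization. Doublets were kept, and removal of the 6% of cells with the highest Scrublet scores was an alternative. UMIs were summed per class of cells and scaled to a total of 1000000 (CPM). Genes with at least 100 UMIs over the pair of libraries compared were described (Python 3.11.15, numpy 2.4.6, scipy 1.17.1, pandas 2.3.3, scanpy 1.11.5), and the steps were tested on simulated data. Dividing cells met the rule with at least 2 division genes, astrocyte-like cells had at least 3 astrocyte genes, no Eomes and at most 1 division gene, Eomes-positive progenitor-like cells had Eomes, under 3 stem cell markers and at most 1 astrocyte gene, and microglia-like cells had at least 4 of 12 markers and were in no other class.

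The genes of the cell rule and Larp7 were named, with the 2 highest and 2 lowest of each of 30 lists and the 10 highest and 10 lowest of all genes, by the smaller ratio of those with one sign (Xist and Y-linked genes left out), and the 12 highest over other cells. A few genes so named were left out of the text. The members and lists were chosen with earlier results of these data known. Neurosphere RNA-seq, ATAC-seq, CUT&Tag and P14 cells were not analysed here.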

Additional observations from a re-analysis of the deposited data

How the results depend on the processing

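With 1 library per genotype, genotype and library cannot be told apart, and depth limits genes under about 100 UMIs. Of 507 values that answer a comparison, taken over 14 alternatives of which 2 were added after seeing the data, 446 moved by less than their error or stayed within 1.5 times, and 61 moved. Of 2154 values of named genes, 195 moved and 7 changed sign. The median of the immediate early and heat shock list ranged from 0.60 to 0.86 and from 0.35 to 0.57, and that of quiescence regulators from 0.23 to 0.40 and from 0.19 to 0.33. Where no cause is given below, the cause was not tested.

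The share of RGL-like cells (wild-type, Larp7f/f;nestin-Cre, Larp7f/f;Emx1-Cre) was 5.36%, 6.59% and 6.75% on thinned cells, 2.61%, 5.76% and 6.00% with at least 4 markers, 10.5%, 12.2% and 13.0% with at least 2, 2.19%, 3.10% and 3.25% with no astrocyte or division gene, and 7.83% and 9.38% (wild-type, Larp7f/f;nestin-Cre) over cells with more than 1000 genes. With at least 2 markers the ratio of median UMIs was 1.55 and 1.53.

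The ribosomal median was -0.19 for Larp7f/f;Emx1-Cre with the rule on thinned cells, -0.29 and -0.21 with at least 4 markers, -0.29 for Larp7f/f;nestin-Cre with at least 2, -0.38 and -0.29 with median-of-ratios scaling, and -0.37 and -0.27 without mitochondrial and ribosomal genes in the total. With at least 2 markers the G2/M median was 0.01 for Larp7f/f;nestin-Cre, and for Larp7f/f;Emx1-Cre the G2/M and S phase medians moved below 0, to -0.07 and -0.10, against 0.17, 0.21 and 0.24 under the rule. For Larp7f/f;Emx1-Cre the median of astrocyte genes was 0.30 with no astrocyte or division gene, of S phase genes 0.36 without high doublet scores, and of Notch genes 0.26 in thinned cells. The neuronal commitment median was 0.47 for Larp7f/f;nestin-Cre in cells of 2000 to 5000 UMIs.

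Genes at least 1.5-fold higher and lower numbered 188 higher in Larp7f/f;Emx1-Cre with at least 4 markers, and 81 lower in Larp7f/f;nestin-Cre than Larp7f/f;Emx1-Cre with at least 2. With fewer cells (no astrocyte or division gene) they were 205 higher in Larp7f/f;nestin-Cre than wild-type, 104 higher and 53 lower in Larp7f/f;Emx1-Cre, and 53 and 33 between the mutant libraries. With fewer UMIs (thinned) they were 205 and 84, 138 and 56, and 39 higher between the mutant libraries. With at least 300 UMIs they were 121 and 33, 62 and 22, and 11 and 4. With at least 30 UMIs they were 1244 and 450, 970 and 380, and 445 and 352. At 2-fold they were 63 and 13, 42 and 11, and 8 and 1.

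The log2 ratio of Cldn5 in Larp7f/f;nestin-Cre turned to 0.27 with at least 4 markers and to 3.25 with no astrocyte or division gene. Under that last setting Ccl4 turned to 1.58 and 0.20, and for Larp7f/f;Emx1-Cre C1qc to 1.65, Ccnt2 to 0.03 and Lef1 to -0.17.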
